A study of Homo sapiens with 45 samples.

Results

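The regions described here are the ChIP-seq peaks of HEK293T cells that the authors placed on contigs outside chromosomes 1 to 22, X, Y and M of the human genome build hg19. They were chosen by the sequence name of each peak alone, over all 12 deposited peak lists, and 784 of 53713 distinct positions lay on such contigs. Counted once per list, these were 786 of 53743 regions. They fell on 33 contigs: 9 alternate haplotypes with 92 regions, 10 unlocalised contigs, assigned to a chromosome without a position, with 407, and 14 unplaced contigs with 287. Regions of all lists that overlapped were merged into 228 loci.

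The study compared HEK293T cells, a human embryonic kidney line, kept for 72 h in the solvent DMSO, in 30 µM BPK25 or in 0.5 mM IAA. In each treatment, chromatin was immunoprecipitated for CTCF, MBD2, MBD3 or TET1 with 3 replicates, and 3 input libraries were sequenced, which made 45 libraries in 15 groups, 9 of them input. The authors called peaks on the 3 replicates of a group together, so each treatment and antibody has 1 list and no spread between replicates. The labels name HEK293T and edited cells derived from it, and do not say which of these cells were given IAA. The IAA and DMSO lists may therefore differ in their cells as well as in treatment. The labels do not give the target of IAA, and do not say whether replicates were separate cultures.

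CTCF is a zinc-finger protein that binds DNA at many sites and anchors chromatin loops. MBD2 and MBD3 are methyl-CpG-binding-domain proteins and alternative subunits of the NuRD complex, which remodels nucleosomes and deacetylates histones, and TET1 oxidises methylated cytosine in DNA. Unplaced and unlocalised contigs of a genome build often hold repeats that could not be assembled into a chromosome, and an alternate haplotype is another version of a stretch that a chromosome also holds, so a read from such sequence can match more than 1 place. The sources used here do not say how such reads were treated.

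With 1 list per group, no difference between lists could be tested, and each share below carries a 95% Wilson interval that covers counting over regions only. The fold of a region is the authors' value. It was read as the pileup of fragments at the summit plus 1 over the local background plus 1, so at low counts it is smaller than the plain ratio. Pileup and local background were solved from the authors' fold and −log10 p for all 786 contig regions. The smallest local background of a list, called its floor here, was 3.77 to 5.68 fragments in the 4 DMSO lists, 0.256 to 1.86 in the BPK25 lists and 0.911 to 1.14 in the IAA lists, and local backgrounds are given as multiples of it. The floor of a list goes with its read depth if the caller's default scaling was used, which the sources used here do not say. The part of depth in which regions were listed was not tested.

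Contigs held about 1 in 100 regions in DMSO and a far greater share of the short treated lists. In DMSO, 174 of 17440 CTCF regions lay on contigs, which is 0.998% (0.861% to 1.16%). It was 1.05% for MBD3 (106 of 10137), 0.915% for TET1 (66 of 7211) and 0.682% for MBD2 (109 of 15991). Under BPK25, 76 of 375 CTCF regions lay on contigs, or 20.3% (16.5% to 24.6%). For MBD3 under BPK25 it was 70 of 374, or 18.7% (15.1% to 23%), for MBD2 44 of 510, or 8.63% (6.49% to 11.4%), and for TET1 21 of 777, or 2.70% (1.77% to 4.10%). Each of these intervals lay above that of the same antibody in DMSO. With 2 contigs left out that held most of the contig regions, chr9_gl000199_random and chrUn_gl000226, the share for CTCF was 0.664% (0.182% to 2.39%) under BPK25 and 0.501% (0.407% to 0.618%) in DMSO. For TET1 it was then 0.657% (0.281% to 1.53%) and 0.321% (0.214% to 0.481%), and for both antibodies the intervals overlapped. For MBD2 and MBD3 the shares under BPK25 were 2.31% and 1.62%, against 0.351% and 0.358% in DMSO. Under IAA, contigs held 46 of 595 CTCF regions, 7.73% (5.85% to 10.2%). They held 28 of 138 MBD2 regions, 20.3% (14.4% to 27.8%), 22 of 95 MBD3 regions, 23.2% (15.8% to 32.6%), and 24 of 100 TET1 regions, 24% (16.7% to 33.2%). Without those 2 contigs the share under IAA was 2.66% for CTCF and 0% for the other 3 antibodies. The latter were 0 of 110 regions for MBD2, 0 of 73 for MBD3 and 0 of 76 for TET1. Their intervals reached up to 3.37%, 5.00% and 4.81% and so included the DMSO shares. The number of contig regions was nonetheless lower in each treated list than in the DMSO list of its antibody, while the treated lists as a whole were shorter by far. With a −log10 q of 5 or more in every list, the share under BPK25 was 37.8% for CTCF, 36.5% for MBD3 and 4.40% for TET1.

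**Figure D1:**
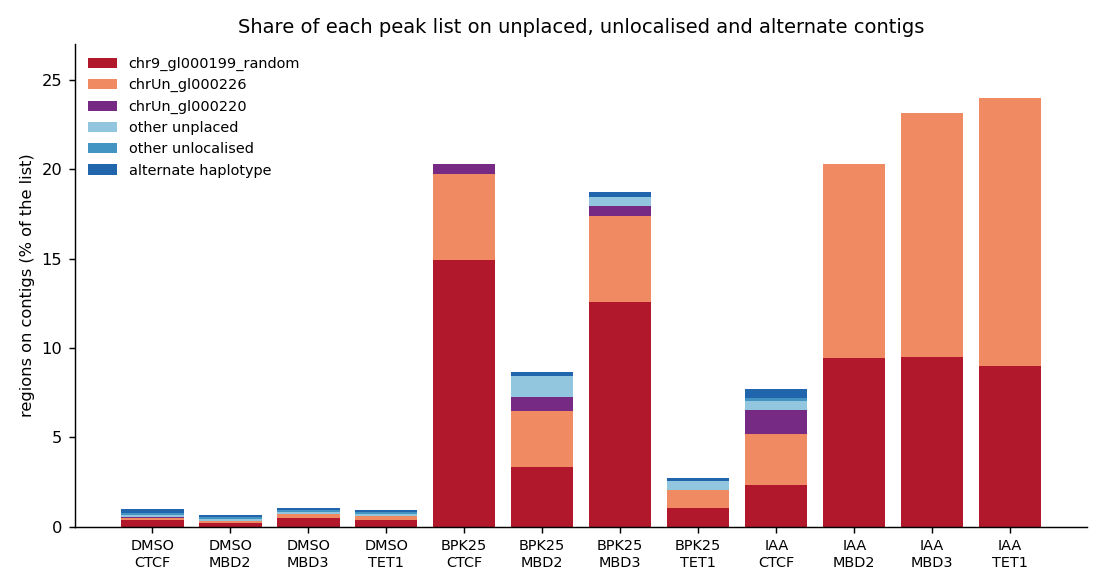
Percent of the regions of each of the 12 peak lists (horizontal axis) that lie on contigs, stacked by contig or class of contig. The DMSO bars stay near 1%, the bars of CTCF and MBD3 under BPK25 reach 20.3% and 18.7%, and those of MBD2, MBD3 and TET1 under IAA consist of chr9_gl000199_random and chrUn_gl000226 alone.

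Most of these regions sat on those 2 contigs, called the region-rich contigs here and singled out after their counts were seen. The unlocalised contig chr9_gl000199_random held 359 regions in 80 loci, 45.7% of all contig regions, and the unplaced contig chrUn_gl000226 held 187 in 18 loci, 23.8%. Together they held 546 of 786 regions, or 69.5%. The other 31 contigs held 240 regions in 130 loci. By treatment, the region-rich contigs held 253 DMSO regions, 188 BPK25 regions and 105 IAA regions. The other 31 contigs held 202 in DMSO, 23 under BPK25 and 15 under IAA, and all 15 of the last were CTCF regions. No region of the MBD2, MBD3 or TET1 lists under IAA lay on any other contig. Those lists are short, and their shares on the other contigs cannot be told apart from those in DMSO.

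On chrUn_gl000226 the 18 loci lay between positions 970 and 14921 and each was found in 5 or more of the 12 lists. Of these loci, 13 were in 10 lists or more and 6 in all 12. CTCF and MBD3 had regions at all 18 in DMSO and again at all 18 under BPK25, CTCF at 17 under IAA, and the smallest number was 8, for TET1 under BPK25. Neighbouring summits of the DMSO CTCF list were a median of 801 bp apart, with a range from 567 to 1114 bp. The summits that different lists placed in 1 locus spanned a median of 41.5 bp. The folds were low, between 1.29 and 1.99 for DMSO CTCF with a median of 1.73. The pileup was high, with a median of 1031 fragments over a median local background of 128 times the floor.

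On chr9_gl000199_random the 80 loci lay between 24111 and 168525. DMSO CTCF had 69 regions there, DMSO MBD3 52, DMSO MBD2 36 and DMSO TET1 29. Under BPK25 there were 56 for CTCF, 47 for MBD3, 17 for MBD2 and 8 for TET1, and under IAA 14, 9, 13 and 9 in the order CTCF, MBD3, MBD2 and TET1. Of the 80 loci, 58 were found in DMSO and in a treated list, 15 in DMSO alone and 7 in treated lists alone. Among the 69 loci found in 2 or more lists, the summits spanned a median of 21 bp, and in 52 they lay within 50 bp. The median fold was 1.89 for DMSO CTCF, at 48.7 times the floor, and 26.1% of those regions held more than 1 summit, against 2.19% of DMSO CTCF regions on chromosomes.

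In the DMSO lists, regions of the region-rich contigs had a higher pileup and local background and a lower fold than other regions. In the DMSO CTCF list, their 87 regions had a median fold of 1.86, a median local background of 57.8 times the floor and a median pileup of 500.0 fragments. The 87 regions on the other 31 contigs had a median fold of 4.30 at 1.21 times the floor, close to the 4.32 at 1.82 times of the 17266 regions on chromosomes. The background was over 20 times the floor at 84 of 87 regions on the region-rich contigs, at 2 of 87 on the other contigs and at 160 of 17266 on chromosomes. For DMSO MBD3 the medians of fold were 1.71 on the region-rich contigs, 3.56 on the other contigs and 3.85 on chromosomes. For MBD2 they were 1.65, 5.00 and 4.54 in the same order, and for TET1 1.51, 3.48 and 3.38. Fold was thus lowest on the region-rich contigs in each of the 4 DMSO lists. Chromosome regions of like background were not set apart here. Median fold was also lower on these contigs than on chromosomes in the 4 BPK25 lists and for CTCF under IAA. For MBD2, MBD3 and TET1 under IAA it was 1.92, 1.94 and 1.81, against 1.93, 1.76 and 1.74 on chromosomes. The chromosome regions of those IAA lists had median backgrounds of 217, 327 and 279 times the floor.

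**Figure D2:**
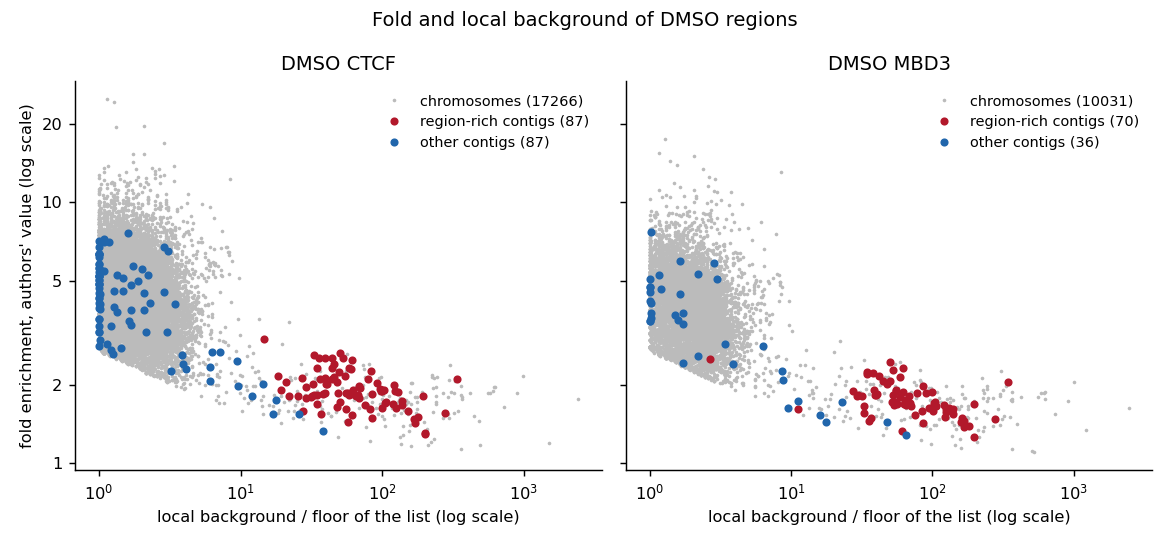
The authors' fold of each DMSO CTCF region (left) and DMSO MBD3 region (right) against its local background as a multiple of the list's floor, both on log scales; each point is a region. Regions of the region-rich contigs (red) sit at low fold and mostly above 20 times the floor, and those of the other contigs (blue) lie mostly among the chromosome regions (grey).

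Within a treatment, the local background at contig regions followed a single profile whichever antibody was used, and so did that at chromosome regions. At the 69 contig regions where DMSO MBD2 and DMSO CTCF summits lay within 20 bp, the ratio of the local backgrounds had a median of 0.870, and the ratio of the list floors was 0.867. The ratio was 1.09 for DMSO MBD3 to CTCF (75 regions, floors 1.09) and 1.32 for TET1 to CTCF (43 regions, floors 1.31). Under BPK25 the ratio was 7.31 for MBD2 to CTCF (20 regions, floors 7.29) and 1.44 for MBD3 to CTCF (42 regions, floors 1.46). Under IAA it was 1.16 for MBD2 to CTCF (16 regions, floors 1.15). On chromosomes the same ratios were 0.870, 1.09 and 1.32 in DMSO, 7.28 and 1.44 under BPK25 and 1.16 under IAA. Each treatment has a single group of input libraries in the labels, so its lists may share their control. Regions that several antibodies list at the same contig position are then not independent of each other in their background.

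Between treatments the background of chrUn_gl000226 relative to the floor was not the same. Its median over the regions listed there was 128 to 137 times the floor in the 4 DMSO lists, 187 to 238 in the BPK25 lists and 148 to 152 in the IAA lists. The 3 ranges did not overlap, but the loci listed differ between lists. The 8 loci found in all 12 lists are the same in each list, 6 on chrUn_gl000226 and 2 on chr9_gl000199_random. Over these 8 loci the median was 154 to 169 times in DMSO, 216 to 238 under BPK25 and 180 to 199 under IAA. Those ranges did not overlap either. Summits of different lists within 1 such locus lay up to 361 bp apart, so the background was not read at the same base. The 4 lists of a treatment follow 1 background profile, so a range does not hold 4 independent values, and the difference was not tested.

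Of those 8 loci, 2 lay on chr9_gl000199_random and 6 on chrUn_gl000226. Their folds are set side by side here as listed. Because lists differ in their floors, a higher fold in 1 list is not read as more binding. The locus at 155841 to 156609 of chr9_gl000199_random had DMSO folds of 2.11 with the CTCF antibody, 1.93 with that to MBD2, 1.86 with that to MBD3 and 1.79 with that to TET1. In the same order, its folds were 4.45, 1.76, 2.79 and 1.97 under BPK25 and 2.33, 2.09, 1.9 and 1.80 under IAA. The highest values were those of CTCF and MBD3 under BPK25, the lists with the lowest floors. The locus at 66808 to 67354 of the same contig ranged from 1.32 in DMSO TET1 to 3.69 in BPK25 MBD3. On chrUn_gl000226 the locus at 13091 to 13536 ranged from 1.38 in BPK25 TET1 to 2.80 in BPK25 MBD3. The locus at 9911 to 10281 ranged from 1.21 in DMSO TET1 to 2.62 in BPK25 CTCF, and that at 7220 to 7618 from 1.21 to 2.35 in the same lists. The remaining loci, at 14308 to 14921, at 4943 to 5513 and at 3088 to 3451, had highest folds of 2.24, 2.17 and 2.15, each in BPK25 CTCF. BPK25 CTCF gave the highest fold at 6 of the 8 loci and BPK25 MBD3 at 2. These are the lists with the lowest floors, 0.256 and 0.374 fragments, and the part of depth in these folds was not tested.

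Loci just short of all lists included 106967 to 107462 of chr9_gl000199_random, in 11 lists, with a highest fold of 4.18 in BPK25 CTCF. It had no MBD3 region under IAA. The locus at 86260 to 86541 of the same contig was also in 11 lists, with a highest fold of 3.98 in BPK25 CTCF, and had no MBD2 region under BPK25.

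**Figure D3:**
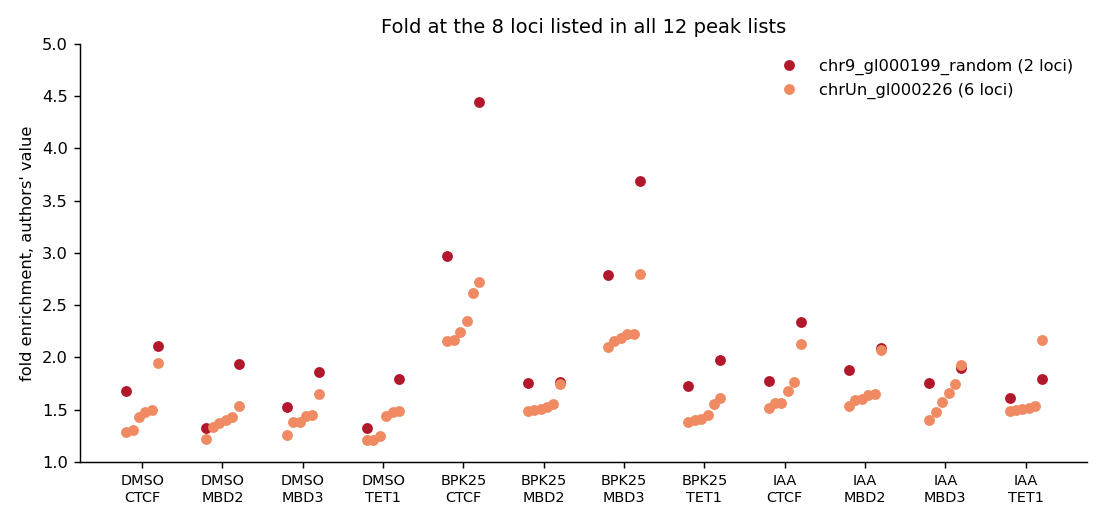
The authors' fold (vertical axis) of the 8 loci that all 12 peak lists hold, by list, with 2 loci on chr9_gl000199_random in red and 6 on chrUn_gl000226 in orange; each point is a locus. Points of CTCF and MBD3 under BPK25, the lists with the lowest floors, lie above 2, whereas most points of the other 10 lists lie below 2. The part of depth was not tested.

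The next comparison asked which regions of DMSO cells were still listed under treatment for the same antibody. For CTCF, 70 of 174 contig regions overlapped a BPK25 CTCF region, or 40.2% (33.2% to 47.7%), against 1.27% of all DMSO CTCF regions. For MBD3 it was 51 of 106, or 48.1% (38.8% to 57.5%), against 1.71%. For MBD2 it was 32 of 109, or 29.4% (21.6% to 38.5%), against 1.45%, and for TET1 16 of 66, or 24.2% (15.5% to 35.8%), against 6.91%. Under IAA the share was 19.5% for CTCF (34 of 174; 14.3% to 26.1%), against 0.952% of all its regions. It was 22% for MBD2 (24 of 109; 15.3% to 30.7%), against 0.613%, and 19.8% for MBD3 (21 of 106; 13.3% to 28.4%), against 0.74%. It was 34.8% for TET1 (23 of 66; 24.5% to 46.9%), against 1.07%. In all 8 comparisons the contig share lay above that of the whole list. Contigs accordingly made up 31.5% of all DMSO CTCF regions still listed under BPK25 (70 of 222) and 29.5% of the MBD3 regions (51 of 173). They made up 13.8% for MBD2 and 3.21% for TET1. Under IAA they made up 29.9% for TET1, 28% for MBD3, 24.5% for MBD2 and 20.5% for CTCF.

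Nearly all of the regions still listed were on the region-rich contigs. There, 70 of 87 DMSO CTCF regions overlapped a BPK25 CTCF region, 80.5% (70.9% to 87.4%), and on the other 31 contigs 0 of 87 did (0% to 4.23%). The counts for BPK25 were 30 of 53 against 2 of 56 for MBD2, 50 of 70 against 1 of 36 for MBD3 and 15 of 43 against 1 of 23 for TET1. Under IAA they were 31 of 87 against 3 of 87 for CTCF, 24 of 53 against 0 of 56 for MBD2, 21 of 70 against 0 of 36 for MBD3 and 23 of 43 against 0 of 23 for TET1. On chrUn_gl000226 all 18 DMSO CTCF regions were still listed under BPK25. Chromosome regions were rarely still listed either. Under BPK25 TET1 kept 6.75% of them, MBD2 1.26%, MBD3 1.22% and CTCF 0.880%. Under IAA TET1 kept 0.756%, MBD3 0.538% and MBD2 0.466%. All these shares lay inside the intervals of the other contigs, which cannot be told apart from chromosomes there. CTCF under IAA kept 0.765% on chromosomes, below the interval of 1.18% to 9.65% on the other contigs.

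Chromosome regions with a local background over 20 times the floor were also listed more often than the rest. Within that class, the backgrounds of contig and chromosome regions were not matched. Among DMSO CTCF regions at over 20 times the floor, 50 of 160 on chromosomes overlapped a BPK25 CTCF region, 31.2% (24.6% to 38.8%), whereas at 3 times the floor or less 49 of 15522 did, 0.316%. In the same class of over 20 times, 67 of 86 contig regions were still listed, 77.9% (68.1% to 85.4%). The region-rich contigs held 84 of these 86, and for MBD3 68 of 71. Under BPK25 the other contigs kept 0 of 2 for CTCF, 0 of 3 for MBD3, 0 of 1 for MBD2 and 1 of 1 for TET1. Regions of 1 contig need not be independent of each other, so the intervals may be too narrow. For MBD3 under BPK25 the shares in this class were 70.4% on contigs (59.0% to 79.8%) and 41.8% on chromosomes (34.4% to 49.6%), and these intervals did not overlap either. For MBD2 they were 54.7% (41.5% to 67.3%) and 37.6% (29.1% to 47.0%), and for TET1 39.0% (25.7% to 54.3%) and 22.9% (15.9% to 31.8%), with overlapping intervals. Under IAA the contigs did not stand above chromosomes of that class for CTCF, with 38.4% against 43.8%, for MBD2, with 45.3% against 62.4%, or for MBD3, with 29.6% against 32.9%. For TET1 the shares were 56.1% and 46.7%. The intervals of contigs and chromosomes overlapped for each antibody under IAA. The classes of background were set after the data were seen, and at 3 times the floor or less 0 of 68 DMSO CTCF regions on contigs were listed under BPK25.

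**Figure D4:**
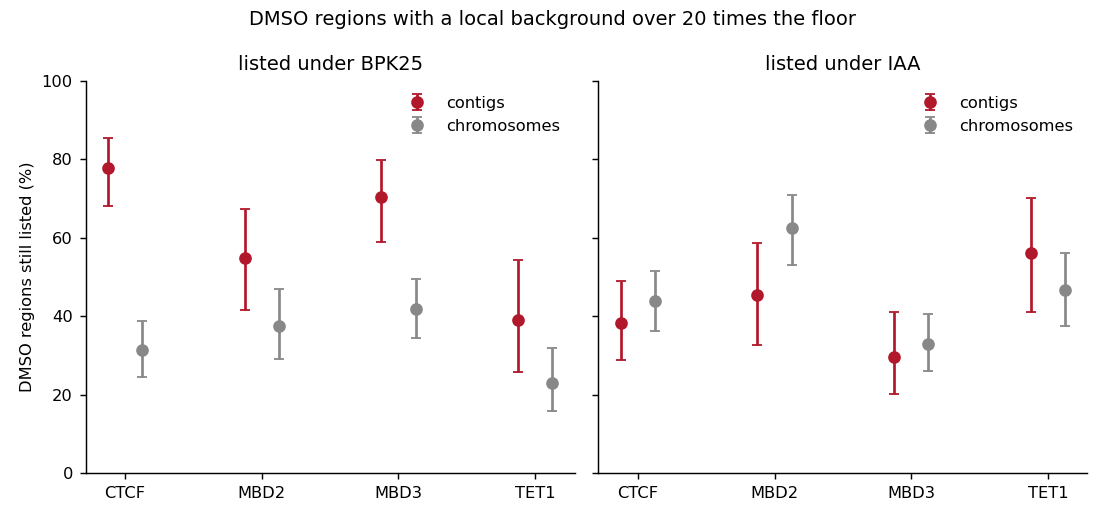
Percent of DMSO regions with a local background over 20 times the floor that overlap a region of the same antibody under BPK25 (left) or IAA (right), on contigs (red) and on chromosomes (grey), with 95% Wilson intervals over regions. Contigs stand above chromosomes without overlap of the intervals for CTCF and MBD3 under BPK25, at 77.9% against 31.2% and 70.4% against 41.8%. The region-rich contigs held 84 of those 86 CTCF contig regions and 68 of the 71 for MBD3.

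Read from the treated side, most regions on the region-rich contigs had a DMSO counterpart, and most of the few CTCF and MBD2 regions on the other contigs did not. Of the BPK25 contig regions, 70 of 76 for CTCF overlapped a region of any DMSO list, against 61.1% of that whole list, 36 of 44 for MBD2, against 54.9%, 62 of 70 for MBD3, against 54%, and 20 of 21 for TET1, against 94.6%. Under IAA these were 35 of 46 for CTCF, against 29.9%, 28 of 28 for MBD2, against 81.2%, 22 of 22 for MBD3, against 82.1%, and 24 of 24 for TET1, against 82%. On the region-rich contigs alone the BPK25 counts were 70 of 74 for CTCF, 33 of 33 for MBD2, 59 of 65 for MBD3 and 16 of 16 for TET1. On the other contigs they were 0 of 2, 3 of 11, 3 of 5 and 4 of 5. For CTCF under IAA they were 31 of 31 on the region-rich contigs and 4 of 15 on the others. The contig regions of CTCF under IAA with no DMSO region numbered 11, of which 5 were also BPK25 MBD2 regions, against 37.2% of all such CTCF regions under IAA. From the other side, 8 contig regions of BPK25 MBD2 had no DMSO region and 5 of them were IAA CTCF regions, against 70.4%. With counts this small the contig shares cannot be told apart from those of the whole lists.

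In DMSO, the regions of CTCF and of its partners overlapped on contigs to a degree that again differed between the region-rich contigs and the rest. Of 174 CTCF contig regions, 95 overlapped an MBD2 region, 54.6% (47.2% to 61.8%), against 67.4% of all DMSO CTCF regions. For MBD3 it was 94, 54.0% (46.6% to 61.3%), against 46.4%, and for TET1 58, 33.3% (26.8% to 40.6%), against 33.9%. Regions of all 3 partners lay at 43 CTCF contig regions, 24.7% (18.9% to 31.6%), against 23%. On the region-rich contigs the shares were 78.2% for MBD3 (68.4% to 85.5%), 59.8% for MBD2 and 47.1% for TET1. On the other contigs they were 29.9% (21.3% to 40.2%), 49.4% (39.2% to 59.7%) and 19.5% (12.6% to 29.1%), all below the shares of the whole list. In the other direction, CTCF regions lay at 87.2% of the DMSO MBD2 contig regions, against 73.5% of all MBD2 regions, at 88.7% for MBD3, against 80%, and at 87.9% for TET1, against 82.1%. The region-rich contigs had 98.1%, 97.1% and 95.3% in the same order. The other contigs had 76.8% (64.2% to 85.9%), 72.2% (56.0% to 84.2%) and 73.9% (53.5% to 87.5%), so MBD3 and TET1 there lay below the whole list, with intervals that include it.

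Under BPK25, 33 of 44 MBD2 contig regions overlapped a BPK25 CTCF region, against 18.4% of the whole MBD2 list, 61 of 70 for MBD3, against 38.8%, and 14 of 21 for TET1, against 9.78%. The region-rich contigs held 31 of 33, 59 of 65 and 14 of 16 in the same order, and the other contigs 2 of 11, 2 of 5 and 0 of 5. Under IAA these were 24 of 28 for MBD2, against 71%, 18 of 22 for MBD3, against 71.6%, and 24 of 24 for TET1, against 79%. All of the IAA counts are from the region-rich contigs.

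The contig chrUn_gl000220 is known to hold copies of the ribosomal DNA repeat, whose transcript is cut into ribosomal RNAs. It held 24 regions in 13 loci, 8 in each treatment, and 0 of the 13 loci were found both in DMSO and in a treated list. Of all 228 contig loci 86 were, 58 of them on chr9_gl000199_random and 18 on chrUn_gl000226. TET1 under BPK25 and MBD2, MBD3 and TET1 under IAA had no region on chrUn_gl000220.

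In DMSO, 1 locus on this contig was in all 4 lists, at 93567 to 93884, with folds of 7.42 for MBD2, 6.71 for CTCF, 5.85 for MBD3 and 4.32 for TET1. The pileups were 88, 90, 84 and 75 fragments in that order, the local background was 2.87 to 2.92 times the floor, and the 4 summits lay within 10 bp. The other 4 DMSO loci were found for CTCF alone. They began at 103472, 104381, 134248 and 148356 with folds of 2.34, 2.28, 2.01 and 2.40, all below the CTCF fold of the shared locus. None of the 5 DMSO CTCF regions overlapped a CTCF region of either treatment. Of all DMSO CTCF regions 1.27% did under BPK25 and 0.952% under IAA, and 5 regions cannot be told apart from those shares.

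In treated cells the regions of this contig lay elsewhere and mostly came as pairs. The locus at 109668 to 110111 had folds of 8.43 for CTCF under IAA, 5.07 for MBD2 under BPK25, 5.21 for CTCF under BPK25 and 3.85 for MBD3 under BPK25. The locus at 153389 to 154083 had folds of 8.25, 5.03, 4.34 and 3.86 in the same order. The ends of the 2 regions were 43972 bp apart in 3 of these lists and 43962 bp apart for MBD3 under BPK25. Their starts were 43721 to 44023 bp apart in the 4 lists. Within each of the 4 lists the 2 regions had like pileups, 102 and 109 fragments for CTCF under IAA, 137 and 131 for MBD2 under BPK25, and, also under BPK25, 25 and 23 for CTCF and 22 and 22 for MBD3. The local background was 12.0 to 15.6 times the floor at the first locus and 13.2 to 17.7 times at the second.

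CTCF under IAA had a further 6 regions on chrUn_gl000220. Of these, 4 followed the first locus, beginning at 115078, 115675, 116988 and 117710 with folds of 4.78, 4.72, 4.45 and 3.72. The other 2 followed the second locus, beginning at 158642 and 159702 with folds of 5.34 and 4.19. MBD2 under BPK25 had 2 further regions, beginning at 115776 with a fold of 3.13 and at 159903 with a fold of 2.11, and both overlapped CTCF regions of IAA cells. Under IAA, the ends of the CTCF regions that began at 115675 and 159702 were 43971 bp apart, and those of the regions that began at 115078 and 158642 were 43951 bp apart. The starts of these 2 pairs were 44027 and 43564 bp apart. In DMSO, the CTCF regions that began at 104381 and 148356 had starts 43975 bp and ends 43889 bp apart. The starts of those at 103472 and 148356 were 44884 bp apart. A read that matches both copies of a repeat equally well cannot be assigned to 1 of them, and whether the pairs stand for separate sites was not tested.

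**Figure D5:**
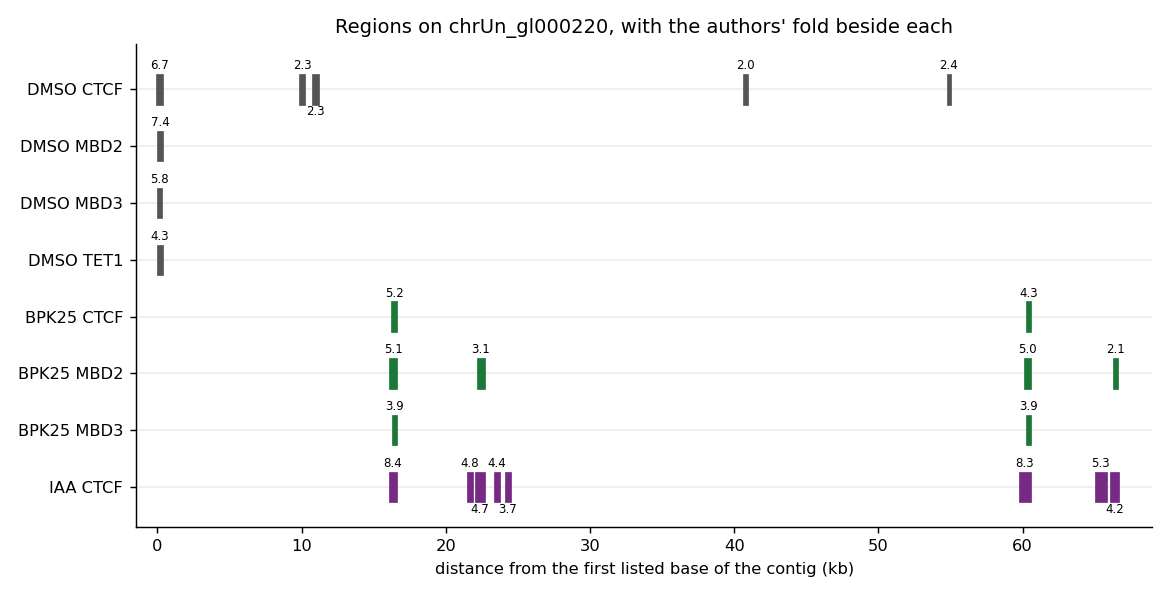
Regions of the 8 lists with a region on chrUn_gl000220, drawn to scale along the contig as the distance in kb from its first listed base, with the authors' fold beside each region. DMSO lists (grey) share the region at the origin, while regions under BPK25 (green) and IAA (purple) begin near 16.1 kb and again near 59.8 kb, where no DMSO region lies.

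The 9 alternate haplotypes held 86 regions in DMSO, 3 under BPK25 and 3 under IAA. Their share of the CTCF list was 0.241% in DMSO, 0% under BPK25 and 0.504% under IAA. Under BPK25 it was 0.196% for MBD2, 0.267% for MBD3 and 0.129% for TET1, from 1 region each. In DMSO it was 0.163%, 0.109% and 0.0971% in the same order. IAA gave no haplotype region for TET1, MBD3 or MBD2. Shares from 1 region or none are too few to compare, and whether list length accounts for the lower counts was not tested. The DMSO CTCF regions of the haplotypes had a median fold of 5.05 at a median local background equal to the floor, and 1 of 42 was above 3 times the floor. Of these 42 regions, 21 overlapped an MBD2 region, 50% (35.5% to 64.5%), and 6 an MBD3 region, 14.3% (6.72% to 27.8%). TET1 also lay at 6. Chromosome regions of DMSO CTCF with the same low background, at most 1.1 times the floor, and a pileup of 24.25 to 33 fragments, the lower and upper quartile of the haplotype regions, overlapped MBD2 in 55.4% of 641, MBD3 in 32.6% (29.1% to 36.3%) and TET1 in 25.4% (22.2% to 28.9%). In that window the haplotypes had only 17 regions, of which 8 overlapped MBD2, 2 MBD3 and 1 TET1, so the window leaves wide intervals, 3.29% to 34.3% for MBD3. This matching was chosen after the data were seen.

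On the 7 haplotypes of chromosome 6, which are other versions of the major histocompatibility complex, DMSO CTCF had 30 regions. The stretch of chromosome 6 from 29 to 33 Mb, which holds that complex, had 9, or 2.25 per Mb, against 6.36 per Mb on the rest of the chromosome. For MBD2 the haplotypes had 18 regions and the chromosome stretch 13, for MBD3 7 and 4, and for TET1 4 and 4. The haplotype counts are summed over 7 contigs whose lengths were not used, so they do not show a higher density of regions. The median folds were alike, 5.03 on the haplotypes and 5.00 on the chromosome stretch for CTCF and 5.05 and 4.91 for MBD2. The locus of chr6_cox_hap2 at 32484 to 33248 was the only haplotype locus in all 4 DMSO lists, with folds of 5.07 for MBD2, 5.01 for CTCF, 3.45 for TET1 and 3.42 for MBD3.

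The contig chr17_ctg5_hap1, another version of the stretch around MAPT, the gene of the microtubule protein tau, held 25 regions in 13 loci. Its locus at 78004 to 78350 had the highest contig fold of both the MBD2 list, 8.86, and the CTCF list, 7.61, in DMSO. It was also in the DMSO MBD3 list, with 5.95, and was the highest contig region of TET1 under BPK25, with 5.95 from a pileup of 21 fragments. The contig chr4_ctg9_hap1, another version of a stretch with UGT2B genes, enzymes that attach glucuronic acid to steroids and drugs, held the highest contig fold of the whole series. This was 19.6 for CTCF under IAA at 71894 to 72224, from a pileup of 37 fragments over a background equal to the floor. MBD2 under BPK25 had its highest contig fold, 5.58, in the same locus with a pileup of 15, and no DMSO list had a region that overlapped it. A DMSO CTCF region with a fold of 5.24 lay just before it, at 71664 to 71868 of the same contig. The 2 other haplotype regions of CTCF under IAA, on chr6_cox_hap2 and chr6_mann_hap4, had folds of 7.23 and 6.20 from 13 and 11 fragments and were in no other list.

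The highest contig folds of the remaining lists were spread over several contigs. For DMSO MBD3 it was 7.71 at 19917 to 20143 of chr8_gl000197_random, and for DMSO TET1 5.24 at 1021446 to 1021670 of chr6_mcf_hap5. For MBD3 under BPK25 it was 5.09 at 2776287 to 2776507 of chr6_apd_hap1, from a pileup of only 6 fragments. For CTCF under BPK25 it was 5.80 at 152374 to 152581 of chr9_gl000199_random. The lists of MBD2, MBD3 and TET1 under IAA had their highest contig folds on the same contig, 2.85 at 46276 to 46484, 3.02 at 84926 to 85114 and 2.23 at 86308 to 86512.

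Unlocalised contigs other than chr9_gl000199_random were 9 in number and held 47 DMSO regions, no BPK25 region and 1 IAA region. Their share of the CTCF list was 0.0975% in DMSO and 0.168% under IAA. The 12 unplaced contigs other than chrUn_gl000220 and chrUn_gl000226 held 61 DMSO regions, 12 BPK25 regions and 3 IAA regions. Their share of the CTCF list was 0.132% in DMSO, 0% under BPK25 and 0.504% under IAA. Under BPK25 it was 1.18% for MBD2, 0.535% for MBD3 and 0.515% for TET1, against 0.106%, 0.128% and 0.111% in DMSO. Among these 12 contigs, chrUn_gl000214 had the locus in the most lists, at 134158 to 134817 in 7 lists. These were all 4 of DMSO with folds of 1.42 to 1.64, MBD2 and TET1 under BPK25 with 2.07 and 2.56, and CTCF under IAA with 2.09. Its locus at 64356 to 65183 was in 6 lists, with folds of 3.38 to 3.97 in DMSO, 5.08 for MBD3 under BPK25 and 3.80 for CTCF under IAA. The contig chrUn_gl000216 had regions under BPK25 alone, for MBD2 and TET1, at 145166 to 145379 with folds of 2.39 and 2.28 and a background of 52.5 and 54.7 times the floor. These loci outside the named-locus rule were picked after their values were seen.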

How the data were processed

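ChIP-seq peak lists of 12 treatment and antibody groups of HEK293T cells were used, 1 list per group, each called by the authors on 3 replicates together. MACS2 2.1.2 and Bowtie2 2.3.4 were used on build hg19, with deepTools 3.5.0, bedtools 2.25.0, SAMtools 1.9 and FastQC 0.11.7, per the submitters' processing notes. The sources used here do not give settings or the handling of reads with several matches. The deposited fold is a linear ratio, and the −log10 p-value and −log10 q-value of each peak are also the authors' values. The deposited display score was not used. Groups were taken from the titles of the libraries.

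Sub-peaks with the same start and end were joined, and the most significant gave the values. Overlap meant 1 bp or more. Pileup and local background were solved from fold, read as pileup plus 1 over background plus 1, and from −log10 p, read as a Poisson upper tail, with whole pileups tried up to 150 within 0.02% of the −log10 p. Above 150, where whole numbers were not imposed, 404 of 404 contig regions came out within 0.05 of a whole number. The floors of MBD2, MBD3 and TET1 under IAA rest on 4, 1 and 2 regions. Python 3.11.15 with numpy 2.4.6, pandas 2.3.3, SciPy 1.17.1 and matplotlib 3.10.9 was used. On simulated data, 1983 of 1983 pileups and the 300 overlaps placed among 500 regions were recovered. The simulated pileups used the same fold and Poisson formulas, so they check the solving and not the formulas. They covered a narrower range of pileup and fold than the contig regions. Peak lists do not give the depth of each library, and no result has a test.

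Named loci were all loci on chrUn_gl000220, the 10 other loci in the most lists (ties by number of DMSO lists, then highest fold) and the contig region of highest fold in each list. The members, lists and rules were chosen with earlier results of these data known. Gene annotation and sequence of the contigs in hg19 were not used here. Alternatives tried were every sub-peak, a −log10 q of at least 5, 50% overlap, summits within 150 bp, and leaving out haplotypes, chrUn_gl000220 or the region-rich contigs.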

Additional observations from a re-analysis of the deposited data

How the results depend on the processing

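Leaving out the region-rich contigs, an alternative chosen after seeing the data, moved 22 of 23 values out of their 95% interval. The contig share of the DMSO lists became 0.501% for CTCF, 0.358% for MBD3, 0.351% for MBD2 and 0.321% for TET1. Under BPK25 it became 0.664% for CTCF, 1.62% for MBD3, 2.31% for MBD2 and 0.657% for TET1, and under IAA 2.66% for CTCF and 0% for MBD2, MBD3 and TET1. The DMSO contig regions still listed became 0% for CTCF, 2.78% for MBD3, 3.57% for MBD2 and 4.35% for TET1 under BPK25. Under IAA they became 3.45% for CTCF and 0% for the other 3. The CTCF contig regions with an MBD3 region fell to 29.9% and those with a TET1 region to 19.5%, and the share with MBD2 stayed within its interval. With a −log10 q of 5 or more, the contig share of the BPK25 lists was 37.8% for CTCF, 36.5% for MBD3, 11.9% for MBD2 and 4.40% for TET1, and the other 19 values stayed within their intervals. Without the haplotypes, the contig share was 0.759% for DMSO CTCF and 0.520% for DMSO MBD2, and the other 10 lists stayed within theirs. Counting every sub-peak, asking for 50% overlap or summits within 150 bp, and leaving out chrUn_gl000220 left the values they were applied to within their intervals.

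No paired analysis was possible because the replicates of a group were pooled into 1 list before peaks were called, and leaving out a replicate was not possible for the same reason. Differences between treatments therefore rest on 1 list each, and depth, inputs, treatment and, for IAA, the cells used cannot be told apart. That a region is absent from a list does not show that binding was absent.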
